A study of Homo sapiens with 10 samples.

Results

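Mucin-type O-glycosylation is started by the polypeptide GalNAc-transferases, a family of Golgi enzymes encoded by the GALNT genes. The 10 members described here, GALNT1, GALNT2, GALNT3, GALNT4, GALNT5, GALNT6, GALNT7, GALNT10, GALNT11 and GALNT12, were taken by gene symbol from the 58050 gene rows of the expression table. They were chosen by name, but with the lower GALNT3 values of HCT116-CD276KO in this same contrast already known, so their values between the cell lines are a description and carry no test. The question was whether the transcripts of the other members made up for the loss of GALNT3 transcripts. Averaged over the 10 libraries, each member reached 1 TPM or more (TPM being a transcript's abundance divided by its length and scaled to a fixed library total, so that genes can be compared and summed). GALNT3 did so through HCT116-WT alone.

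HCT116 is a human colorectal carcinoma cell line that carries CD276 (B7-H3), an immune checkpoint protein, on its surface. HCT116-WT is the comparison line, labelled as wild type. HCT116-CD276KO is 1 single cell clone obtained after delivery of Cas9 protein with a guide RNA against CD276 and sorting by flow cytometry. A scrambled guide is described as the control of the editing step, but the labels do not say whether the HCT116-WT libraries received it. Poly(A) RNA was sequenced from 5 biological replicates of each line, with the lines kept in different flasks and no source used here saying whether each replicate was a culture of its own. The effect of CD276 loss and traits of the one clone cannot be told apart.

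GalNAc-transferases join GalNAc from the donor UDP-GalNAc to serine and threonine residues of proteins that pass through the Golgi. The isoenzymes overlap in the sites they use, yet each has preferred substrates, and some act best on peptides that another isoenzyme has already glycosylated. The first GalNAc is then extended to core structures, branched and capped with sialic acid, and in the colon such chains are known from mucins and from the truncated antigens of carcinomas.

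The edited gene, CD276, ranged from 38.08 to 53.61 TPM in HCT116-WT and from 4.4 to 7.42 TPM in HCT116-CD276KO. The table is scaled to the same total in each library and holds no read count for a library or gene, and since the study gives depth only as an average, no counting error is attached to single values. Pearson correlations of log2(TPM + 1) between libraries were 0.974 to 0.985 within the lines and 0.966 to 0.981 across them. The epithelial markers EPCAM, CDH1, KRT8, KRT18 and KRT19 were all expressed. They summed to 4170 to 4940 TPM in HCT116-WT and 3310 to 3770 TPM in HCT116-CD276KO. All 5 passed the test as lower, as did 4.09% of all genes tested. With median-of-ratios scaling CDH1 kept the call (limma adjusted p = 0.00203). EPCAM, KRT8, KRT18 and KRT19 lost it there (limma adjusted p = 0.0532 to 0.263). EPCAM also lost it with quantile normalization (limma adjusted p = 0.0524), while all 5 kept it with the length and GC trend removed. The 5 leukocyte markers summed to at most 0.72 TPM in any library. The 5 fibroblast markers summed to 6.01 to 8.98 TPM in HCT116-WT and 4.54 to 7.51 TPM in HCT116-CD276KO, with COL1A1 alone averaging 1 TPM or more and LUM listed at 0 throughout. The part of the epithelial markers in the GALNT values was not tested. In bulk RNA, fewer cells that express a gene and less RNA per cell cannot be told apart.

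In HCT116-WT the family was led by GALNT1 with a mean of 81.2 ± 10.2 TPM (SD, n = 5) and GALNT2 with 42.8 ± 2.95 TPM, the broadly expressed isoenzymes of many tissues. GALNT11, GALNT10 and GALNT7 followed at 25.3 ± 2.14, 25.1 ± 2.05 and 23.3 ± 2.43 TPM, and neighbours in this order did not differ beyond their spread. GALNT12 at 16.4 ± 0.854 TPM and GALNT6 at 14.4 ± 0.882 TPM overlapped each other too. GALNT5 came next at 11.7 ± 1.28 TPM, then GALNT3 at 6.43 ± 1.29 TPM and GALNT4 at 1.37 ± 0.254 TPM. GALNT3 was thus among the scarcer members in HCT116-WT, at 2.58% ± 0.405 (SD, n = 5) of the summed TPM of the 10 genes.

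GALNT3 (ENSG00000115339) encodes the isoenzyme that glycosylates the phosphate hormone FGF23, and its inherited loss causes tumoral calcinosis with high serum phosphate. It lies on the minus strand at chr2:165747588-165794659 (GENCODE annotation of hg38). In HCT116-WT replicates 1 to 5 it was at 8.49, 5.96, 5.1, 5.88 and 6.7 TPM, and in HCT116-CD276KO replicates 1 to 5 at 0.54, 0.29, 0.39, 0.31 and 0.78 TPM. The lowest HCT116-WT library stood far above the highest HCT116-CD276KO library, and every HCT116-CD276KO library was under 1 TPM. The mean of 0.462 ± 0.203 TPM (SD, n = 5) left 7.19% of the HCT116-WT mean, a 13.9-fold lower level. On the log2(TPM + 1) scale, which understates changes of low genes, the difference of HCT116-CD276KO from HCT116-WT was -2.34 (SE 0.14, 95% interval -2.64 to -2.04), and the log2 ratio of the means was -3.80.

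The sequences around the start sites of GALNT3, GALNT7 and GALNT12 are shown because GALNT3 and GALNT12 hold the E-box CACCTG there and GALNT7, also lower in HCT116-CD276KO, does not. The windows run from 250 bases before the RefSeq start to 50 bases after it on GRCh38.p14, at chr2:165794198-165794497 on the minus strand for GALNT3, at chr4:173168561-173168860 on the plus strand for GALNT7 and at chr9:98807420-98807719 on the plus strand for GALNT12. They are written 5′ to 3′ along the gene, with CACCTG, or CAGGTG where it stands on the opposite strand, in capitals.
GALNT3: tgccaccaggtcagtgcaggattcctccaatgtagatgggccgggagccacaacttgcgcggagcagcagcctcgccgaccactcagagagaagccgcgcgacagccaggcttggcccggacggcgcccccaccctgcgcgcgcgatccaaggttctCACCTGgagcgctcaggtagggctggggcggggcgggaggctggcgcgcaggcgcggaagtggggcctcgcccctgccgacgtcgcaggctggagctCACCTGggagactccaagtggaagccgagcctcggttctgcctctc
GALNT7: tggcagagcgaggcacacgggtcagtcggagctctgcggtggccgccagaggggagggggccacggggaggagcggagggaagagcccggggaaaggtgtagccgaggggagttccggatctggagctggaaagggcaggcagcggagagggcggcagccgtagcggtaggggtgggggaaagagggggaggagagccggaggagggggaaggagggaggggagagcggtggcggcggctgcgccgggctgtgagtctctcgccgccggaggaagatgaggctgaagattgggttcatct
GALNT12: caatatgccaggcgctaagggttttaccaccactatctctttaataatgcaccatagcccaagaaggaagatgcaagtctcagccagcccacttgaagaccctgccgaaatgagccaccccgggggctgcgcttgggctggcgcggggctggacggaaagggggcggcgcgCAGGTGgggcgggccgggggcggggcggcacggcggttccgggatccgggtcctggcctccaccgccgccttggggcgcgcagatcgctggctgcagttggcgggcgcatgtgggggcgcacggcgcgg
RefSeq windows were found for 7 of the 10 members, with 9 windows since GALNT1 has 3, and GALNT4, GALNT5 and GALNT6 had no entry. CACCTG was present in 2 of the 9 windows, with 2 matches in GALNT3 and 1 in GALNT12. Of all 35116 windows, 20.6% held at least 1 match on either strand and 3.49% held 2 or more. The motif was picked after the sequences had been seen, and a match describes letters, not a bound site. GGGCGG, the GC box, was in 7 of the 9 windows and in 45.0% of all windows, while the TATA box letters TATAAA were in 0 of the 9 and in 11.5% of all. GALNT3, GALNT7 and GALNT12 had 28, 23 and 29 CpG dinucleotides in 300 bases, against a median of 14 over all windows.

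GALNT5 (ENSG00000136542), the family member with the longest coding sequence at 940 codons, was next in the size of the difference. It lies on the plus strand of the same chromosome at chr2:157257705-157318491. Its levels were 13.09, 11.95, 9.85, 11.1 and 12.58 TPM in HCT116-WT and 5.77, 4.24, 4.63, 6.02 and 7.37 TPM in HCT116-CD276KO. The libraries of the lines did not overlap, and the HCT116-CD276KO mean of 5.61 ± 1.24 TPM (SD, n = 5) was 47.9% of that of HCT116-WT. The difference was -0.96 (SE 0.13, 95% interval -1.24 to -0.68) on the log2 scale. In TPM the means differed by -6.11 TPM, slightly more than the -5.96 TPM of GALNT3.

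GALNT6 (ENSG00000139629, chr12:51351247-51392867, minus strand) was the member nearest to GALNT3 in sequence. Its coding sequence matched that of GALNT3 at 64.6% of aligned bases, against 58.2% to 63.7% for the other 8 members. It was at 14.52, 13.28, 13.87, 15.57 and 14.84 TPM in HCT116-WT and at 13.5, 10.02, 9.55, 10.57 and 13.59 TPM in HCT116-CD276KO. Replicates 1 and 5 of HCT116-CD276KO reached the lower end of the HCT116-WT range and the other 3 stayed below it. The mean of 11.5 ± 1.95 TPM (SD, n = 5) was 79.4% of that of HCT116-WT, a difference of -0.32 (95% interval -0.55 to -0.09). The level of GALNT3 relative to GALNT6 went from 44.6% in HCT116-WT to 3.93% in HCT116-CD276KO.

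GALNT7 and GALNT10 encode isoenzymes that favour peptides already carrying GalNAc. GALNT7 (ENSG00000109586, chr4:173168811-173323967, plus strand) was at 24.72, 23.09, 19.52, 23.09 and 25.97 TPM in HCT116-WT and at 17.28, 13.69, 12.78, 15.65 and 21.21 TPM in HCT116-CD276KO. GALNT10 (ENSG00000164574, chr5:154190730-154420984, plus strand) was at 26.68, 24.49, 26.1, 21.7 and 26.29 TPM in HCT116-WT and at 21.88, 17.91, 16.59, 19.78 and 21.14 TPM in HCT116-CD276KO. Of the HCT116-CD276KO libraries, 4 lay below every HCT116-WT library for each gene, with replicate 5 overlapping for GALNT7 and replicate 1 for GALNT10. The means of 16.1 ± 3.34 and 19.5 ± 2.20 TPM (SD, n = 5) were 69.3% and 77.7% of those of HCT116-WT. The log2 differences were -0.52 (95% interval -0.80 to -0.24) for GALNT7 and -0.35 (95% interval -0.55 to -0.16) for GALNT10.

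GALNT12 (ENSG00000119514, chr9:98807670-98850081, plus strand), which is strongly expressed in the normal colon, was at 16.89, 17.2, 15.5, 15.42 and 16.92 TPM in HCT116-WT. In HCT116-CD276KO it was at 15.23, 12.42, 10.82, 13.07 and 13.88 TPM. Every HCT116-CD276KO library lay below every HCT116-WT library, although replicate 1 of HCT116-CD276KO came close to replicates 3 and 4 of HCT116-WT. The mean of 13.1 ± 1.64 TPM (SD, n = 5) was 79.8% of that of HCT116-WT, with a log2 difference of -0.31 (95% interval -0.50 to -0.12).

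The 3 members with the highest means in HCT116-WT had log2 differences no further from 0 than -0.20. GALNT1 (ENSG00000141429, chr18:35581117-35711834, plus strand) was at 87.84, 89.82, 66.1, 75.35 and 86.95 TPM in HCT116-WT and at 86.28, 59.26, 64.7, 79.85 and 87.36 TPM in HCT116-CD276KO. Its ranges overlapped over most of their width, and the log2 difference was -0.11 (95% interval -0.38 to 0.16). GALNT2 (ENSG00000143641, chr1:230057990-230282122, plus strand) was at 42.68, 44.08, 45.99, 38.04 and 43.38 TPM in HCT116-WT and at 40.02, 38.32, 30.83, 35.42 and 42.45 TPM in HCT116-CD276KO. Here replicates 3 and 4 of HCT116-CD276KO lay below every HCT116-WT library, with replicate 3 the lowest. The log2 difference was -0.20 with an upper limit next to 0 (95% interval -0.39 to -0.0017). GALNT11 (ENSG00000178234, chr7:152025674-152122340, plus strand), an isoenzyme with NOTCH1 among its substrates, was at 23.9, 25.82, 25.22, 22.83 and 28.47 TPM in HCT116-WT and at 24.68, 22.49, 21.14, 24.73 and 22.0 TPM in HCT116-CD276KO. Its log2 difference was -0.13 (95% interval -0.29 to 0.04). The ranges overlapped, with replicates 2, 3 and 5 of HCT116-CD276KO below every HCT116-WT library.

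GALNT4 (ENSG00000257594, chr12:89519412-89524796, minus strand) was the only member with a higher mean in HCT116-CD276KO. It was at 1.44, 1.47, 0.95, 1.38 and 1.63 TPM in HCT116-WT and at 1.26, 1.29, 0.92, 1.62 and 1.99 TPM in HCT116-CD276KO. The ranges overlapped almost fully, and the log2 difference was 0.02 (95% interval -0.29 to 0.32). GALNT4 shares its position with the read-through gene POC1B-GALNT4, listed at a mean of 0.812 TPM in HCT116-WT and 0.434 TPM in HCT116-CD276KO, and how reads were divided between the overlapping genes is uncertain. POC1B itself was at 13.8 and 12.1 TPM (log2 difference -0.18, limma adjusted p = 0.466).

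**Figure D1:**
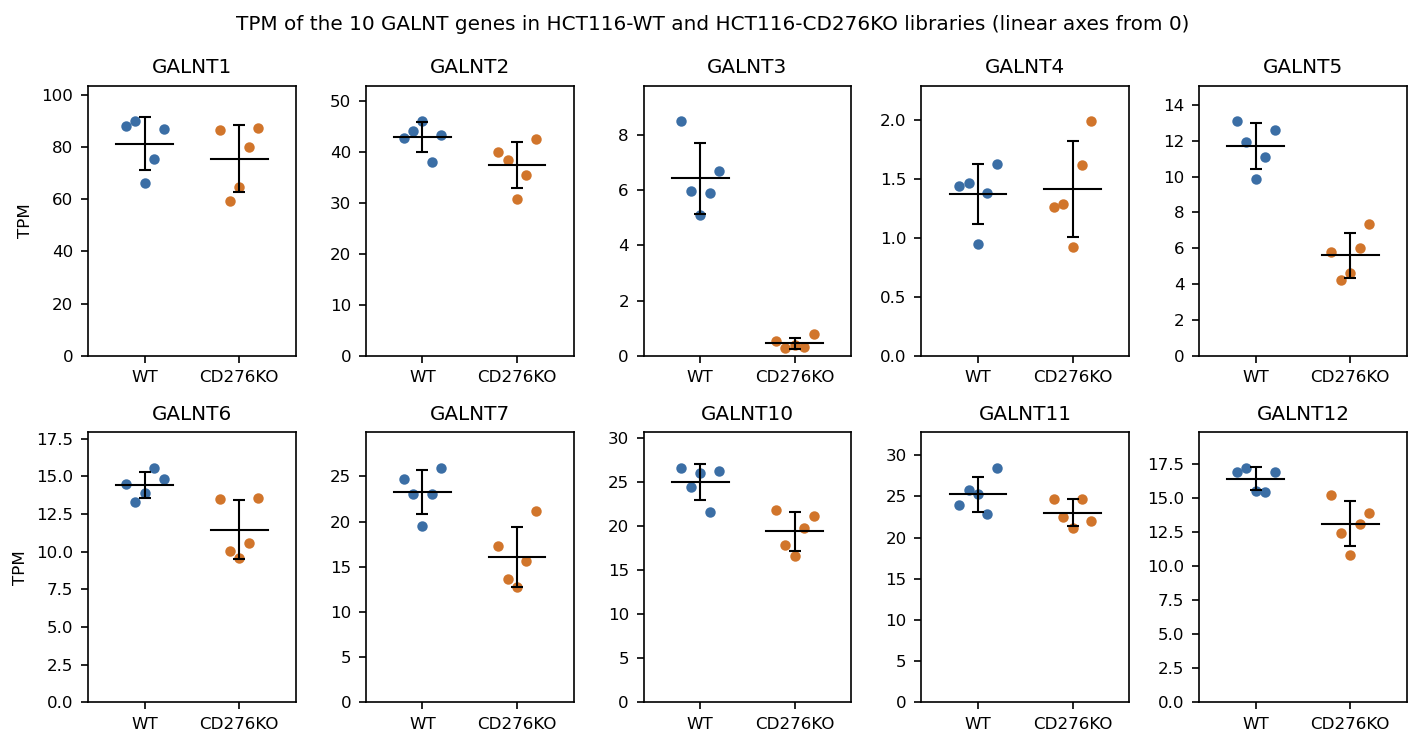
Level of each of the 10 GALNT genes in TPM, 1 panel a gene, with 1 point for each of the 5 libraries of HCT116-WT and of HCT116-CD276KO and bars for the mean ± SD. The points of the lines separate fully for GALNT3, GALNT5 and GALNT12, and GALNT3 lies under 1 TPM in all 5 HCT116-CD276KO libraries.

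Read across the members, 9 of 10 log2 differences were below 0 with a median of -0.32. Over all 13581 genes tested, 68.1% were below 0 and the median was -0.09. With limma across all genes, GALNT3, GALNT5, GALNT7 and GALNT10 had an adjusted p under 0.05, all lower, and 0 of 10 were higher. Of all genes tested, 4.09% were called lower and 0.781% higher in this contrast. The share of lower genes among the calls was 84.0%, but 66.2% with median-of-ratios scaling, 60.3% with quantile normalization and 53.8% with the length and GC trend removed. The call of GALNT10 was lost in 13 of 19 other fits (limma adjusted p = 0.0575 to 0.178), among them both scalings, the replicate block, the length and GC correction, and the fits without HCT116-WT replicate 1, 2, 3 or 5 or HCT116-CD276KO replicate 2, 3 or 4. That of GALNT7 was lost in 9 of 19 (limma adjusted p = 0.0786 to 0.165), among them those without HCT116-WT replicate 1, 2, 4 or 5 or HCT116-CD276KO replicate 2, 3 or 4. The libraries did not overlap for GALNT3, GALNT5 and GALNT12, all lower in HCT116-CD276KO, and for 0 members in the other direction. Among all genes the same held for 6.19% as lower and 1.42% as higher. Since the members were listed with this contrast in view, nothing is read from these counts.

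The libraries differed in their trend with transcript length and GC content. In HCT116-CD276KO replicates 2 and 3, long genes were low relative to the mean of all libraries, with Spearman correlations across genes of transcript length and deviation of -0.52 and -0.49, against -0.094 to 0.43 in the other 8. These were also the libraries with the lowest level in their line for 3 and 7 of the 10 members. Replicate 5 of HCT116-CD276KO, with a correlation of 0.32, was the highest of its line for 7. The matching correlations with GC content were highest in HCT116-WT replicate 3 (0.61) and HCT116-CD276KO replicate 2 (0.48). In the other libraries they were -0.34 to 0.023. HCT116-WT replicate 3 was the lowest of its line for 5 members. Member transcripts were 2739 to 10344 bases long, with GALNT5 the longest and GALNT3 at 3436, and the median of the genes tested was 2913. When the trend with length and GC content was removed from each library, the differences became -2.24 for GALNT3, -0.74 for GALNT5, -0.39 for GALNT7, -0.21 for GALNT12, -0.15 for GALNT10 and -0.14 for GALNT6. Those of GALNT2 and GALNT11 became -0.04 and -0.03, that of GALNT1 turned to 0.0047, and that of GALNT4 became 0.18 (95% interval -0.07 to 0.42). The median of the members was then -0.14, and that of all genes was 0.01.

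**Figure D2:**
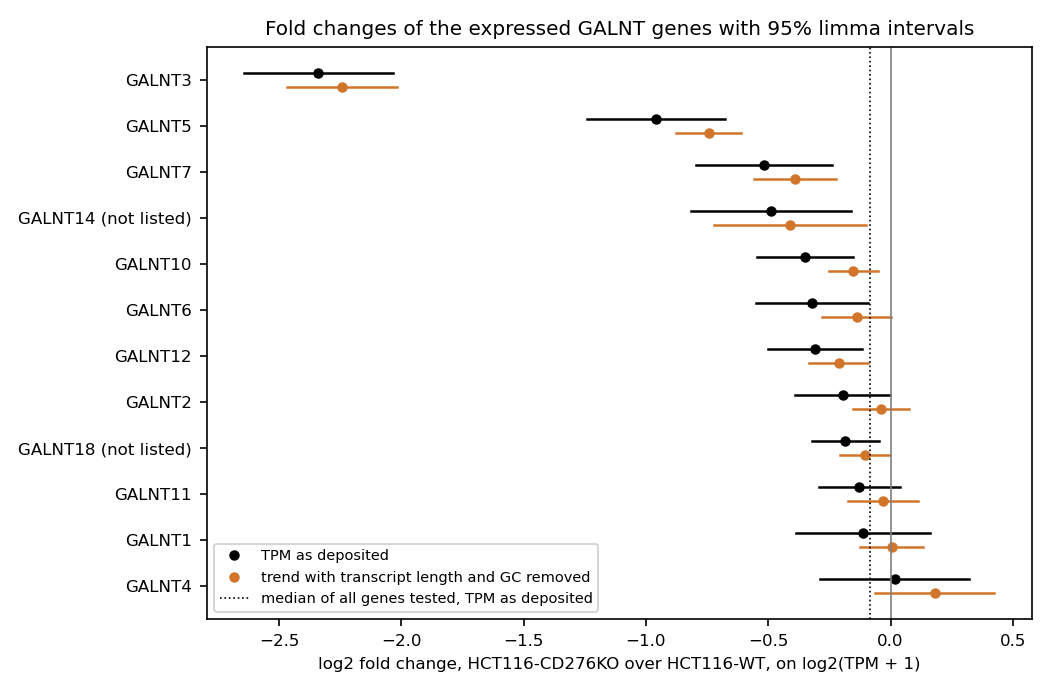
Difference of HCT116-CD276KO from HCT116-WT on the log2(TPM + 1) scale for the 12 GALNT genes that averaged 1 TPM or more, with 95% limma intervals, as deposited (black) and with the trend on transcript length and GC content removed (orange). GALNT3 and GALNT5 stand to the left in both, while most of the others move toward 0 once the trend is removed.

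The summed TPM of the members was compared between the lines and set beside the loss of GALNT3 transcripts. The 10 genes summed to 260.25, 257.16, 228.2, 230.36 and 263.73 TPM in HCT116-WT and to 226.44, 179.93, 172.35, 207.02 and 231.77 TPM in HCT116-CD276KO. HCT116-CD276KO replicate 5 alone lay within the HCT116-WT range. The means were 247.9 ± 17.2 and 203.5 ± 26.8 TPM (SD, n = 5), a difference of -44.4 TPM. It was -29.4 TPM with median-of-ratios scaling, -26.2 TPM without HCT116-CD276KO replicates 2 and 3 and -22.9 TPM with the length and GC trend removed. As deposited, GALNT3 accounted for -5.96 of the -44.4 TPM.

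The 9 genes other than GALNT3 summed to 251.76, 251.2, 223.1, 224.48 and 257.03 TPM in HCT116-WT. In HCT116-CD276KO they summed to 225.9, 179.64, 171.96, 206.71 and 230.99 TPM. Replicates 2, 3 and 4 of HCT116-CD276KO lay below every HCT116-WT library, replicates 1 and 5 lay within the range, and none exceeded it. The means were 241.5 ± 16.4 and 203.0 ± 26.6 TPM, so that the other 9 genes together were lower by a difference of -38.5 TPM rather than higher. With the length and GC trend removed, that difference was -17.3 TPM (229.1 ± 8.54 against 211.9 ± 8.24 TPM). It was -23.7 TPM with median-of-ratios scaling of all 10 libraries and -20.3 TPM without HCT116-CD276KO replicates 2 and 3. Each of these alternatives moved the size of the difference by more than 1.5 times, and in none of the 3 was the sum higher in HCT116-CD276KO. GALNT4, the single member with a higher mean, added 0.042 TPM. The SDs of these sums, as deposited or with the length and GC trend removed, exceeded the GALNT3 difference of -5.96 TPM in size. A rise of that size in another member could therefore be hidden in the sums.

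**Figure D3:**
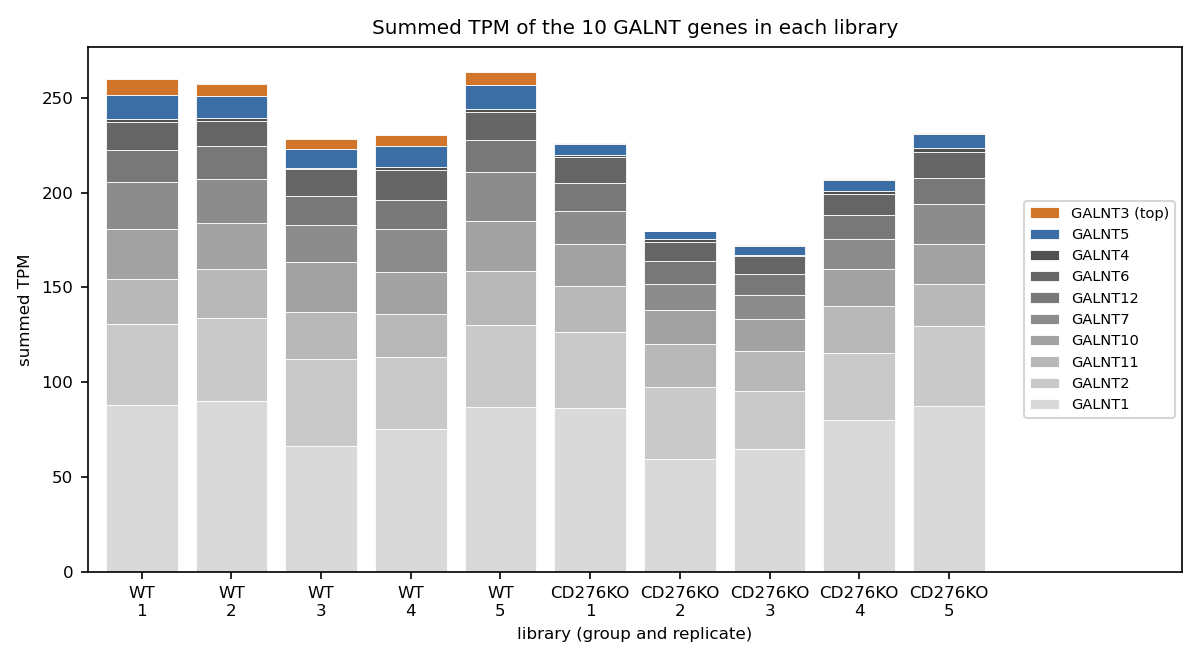
Summed TPM of the 10 GALNT genes in each library, stacked by gene, with GALNT3 in orange at the top and GALNT5 in blue beneath it. The orange block is thin in HCT116-WT and nearly gone in HCT116-CD276KO, and no HCT116-CD276KO bar exceeds the highest HCT116-WT bar of 263.73 TPM.

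GALNT3 and GALNT5 also stood apart in the composition of the pool. The share of GALNT3 in the 10 genes was 3.26%, 2.32%, 2.23%, 2.55% and 2.54% in HCT116-WT and 0.238%, 0.161%, 0.226%, 0.15% and 0.337% in HCT116-CD276KO. The share of GALNT5 was 4.72% on average in HCT116-WT and 2.74% in HCT116-CD276KO, again without overlap. GALNT1 took 32.7% and 37.0%, GALNT2 17.3% and 18.5%, and GALNT11 10.2% and 11.4%, in the same order of lines. GALNT7 took 9.38% and 7.87%, GALNT10 10.1% and 9.58%, GALNT12 6.62% and 6.44%, GALNT6 5.84% and 5.61%, and GALNT4 0.552% and 0.690%. The higher shares of GALNT1, GALNT2 and GALNT11 came with lower mean TPM, and the ranges of the shares overlapped for every member other than GALNT3 and GALNT5.

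The family members left out of the list gave no higher sum either. Of these 10 genes, GALNT14 and GALNT18 were the 2 that averaged 1 TPM or more. GALNT14, known for the glycosylation of death receptors, was at 18.25, 13.11, 12.51, 14.91 and 16.09 TPM in HCT116-WT and at 12.42, 8.77, 7.62, 13.37 and 10.28 TPM in HCT116-CD276KO (log2 difference -0.49, SE 0.15, limma adjusted p = 0.0893). GALNT18 was at 15.04, 14.48, 15.17, 15.12 and 14.38 TPM in HCT116-WT and at 13.2, 14.11, 12.39, 12.33 and 12.65 TPM in HCT116-CD276KO (log2 difference -0.19, limma adjusted p = 0.118). The GALNT18 libraries did not overlap, those of GALNT14 did, and neither gene passed the test. GALNT8, GALNT9, GALNT13, GALNT15, GALNT16, GALNT17, GALNTL5 and GALNTL6 were each under a mean of 1 TPM, the highest being GALNT9 at 0.458 TPM in HCT116-WT and 0.172 TPM in HCT116-CD276KO. GALNT17 and GALNTL6 were listed at 0 in every library. All 20 genes summed to 278.4 ± 18.2 TPM in HCT116-WT and 227.3 ± 28.4 TPM in HCT116-CD276KO (SD, n = 5).

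Of the 23 tested genes that act before or after the first GalNAc, 0 passed the test, where 4.09% of all genes were called lower and 0.781% higher. At an unadjusted limma p under 0.05, 17.6% of all genes were lower and 4.33% higher, beside which the counts of these short lists are to be read. Of the genes for core structures and branching, 5 of 7 were tested and 0 passed in either direction, with 2 at an unadjusted limma p under 0.05, both lower. C1GALT1, the core 1 synthase, was at 34.0 and 28.9 TPM in HCT116-WT and HCT116-CD276KO (log2 difference -0.24, limma adjusted p = 0.242), and its chaperone C1GALT1C1 at 18.0 and 16.7 TPM (-0.10, limma adjusted p = 0.568). GCNT1, which branches core 1 to core 2, was at 4.68 ± 0.622 and 3.15 ± 0.679 TPM (SD, n = 5 each) with no overlap (log2 difference -0.46, limma adjusted p = 0.0649). B3GNT3, which extends core 1, was at 13.7 and 9.90 TPM (-0.43, limma adjusted p = 0.0972).

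Of the sialyltransferases for O-glycans, 7 of 8 were tested and 0 passed, with 2 at an unadjusted limma p under 0.05, both lower. These were ST6GALNAC2, at 4.32 TPM in HCT116-WT and 2.88 TPM in HCT116-CD276KO (log2 difference -0.48, limma adjusted p = 0.107), and ST3GAL1, which caps core 1, at 12.0 and 8.75 TPM (-0.44, limma adjusted p = 0.0991). The genes that make and carry the sugar donors were all tested, 11 of 11, and 0 passed, with 1 lower at an unadjusted limma p under 0.05. That was SLC35A1, the CMP-sialic acid transporter, at 28.8 and 21.2 TPM (-0.42, limma adjusted p = 0.088), followed by PGM3 of the UDP-GlcNAc route at 61.9 and 50.5 TPM (-0.29, limma adjusted p = 0.232). The median log2 differences were -0.24 for core genes, -0.23 for sialyltransferases and -0.04 for donor genes, beside -0.09 for all genes. With the length and GC trend removed, 4 of these 23 genes passed, SLC35A1 and GCNT1 as lower and ST3GAL2 and GNE as higher. In that fit 1299 of 13472 genes passed, 699 as lower and 600 as higher.

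FGF23, the substrate tied to GALNT3, had a mean of 0.002 TPM in HCT116-WT and was listed at 0 in every HCT116-CD276KO library. Of the 13 enzymes that start other kinds of O-glycosylation, 11 were tested and 1, XYLT2, passed. Among all genes tested, 4.09% were called lower and 0.781% higher. XYLT2, which starts glycosaminoglycan chains by adding xylose, fell from 17.9 ± 1.67 to 12.2 ± 1.34 TPM (log2 difference -0.52, SE 0.09, limma adjusted p = 0.00727), and the median of the 11 was -0.15.

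**Figure D4:**
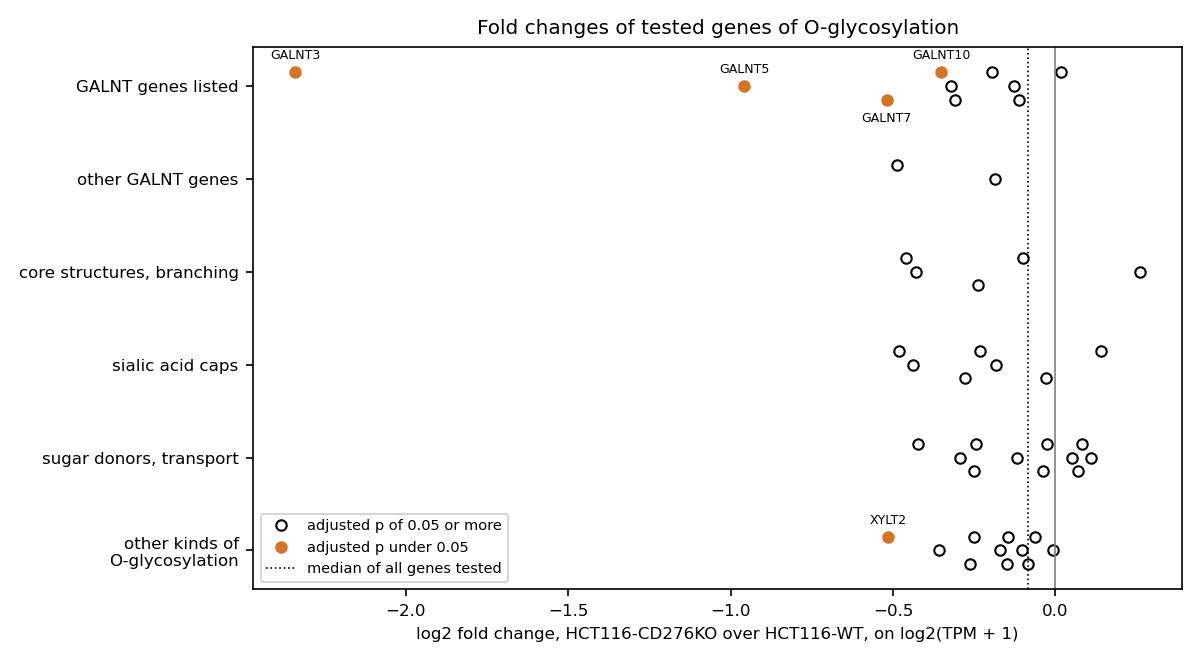
Difference of HCT116-CD276KO from HCT116-WT on the log2(TPM + 1) scale for every tested gene of the GALNT family and of 4 lists of O-glycosylation genes, 1 point a gene, filled where the limma adjusted p was under 0.05. Outside the GALNT genes only XYLT2 is filled, at -0.52, and no list reaches as far left as GALNT3.

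None of the 6 tested genes nearest to GALNT3 passed the test as deposited, where 4.09% of all genes were called lower and 0.781% higher. The nearest tested genes on its left were COBLL1, GRB14 and the gene ENSG00000277998, 904 to 1170 kb away, with log2 differences of -0.20, -0.25 and 0.28 (limma adjusted p = 0.448, 0.492 and 0.466). On its right were TTC21B, 62.8 kb away, and STK39 and CERS6, 2160 and 2660 kb away, with -0.06, -0.31 and -0.25 (limma adjusted p = 0.837, 0.105 and 0.355). With the length and GC trend removed, STK39 passed as lower at -0.20 (limma adjusted p = 0.0276). In that fit 699 of 13472 genes passed as lower.

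Over the 10 libraries, the genes with a pattern most like that of GALNT3 by Pearson correlation of log2(TPM + 1) were EMP1 (r = 0.993), TXLNGY and HTR7 (both 0.992), and the gene ENSG00000250920 and PKIB (both 0.990). The most opposite were ID2 (-0.992), TESC and BEX3 (both -0.977), and LINC01405 and EXO5 (both -0.974). These points share 2 cell lines and their library preparation, and any gene that separates the lines scores high. TXLNGY lies on the Y chromosome and was at 2.1 to 3.93 TPM in HCT116-WT. It was listed at 0 in every HCT116-CD276KO library. Among the members, GALNT5 came nearest at 0.961, followed by GALNT7 at 0.862, GALNT10 at 0.852, GALNT12 at 0.835 and GALNT6 at 0.783. GALNT2 and GALNT11 had 0.639 and 0.533, GALNT1 had 0.376 and GALNT4 had 0.046. Among all tested genes these values ranked 66, 467, 525, 619, 1009, 2659, 4207, 6047 and 9040, in the order named. With the mean of each line taken out, the correlation with GALNT3 was 0.767 for GALNT5, 0.761 for GALNT7, 0.687 for GALNT1, 0.567 for GALNT6 and 0.545 for GALNT4. It was 0.495 for GALNT10, 0.483 for GALNT12, 0.277 for GALNT2 and -0.095 for GALNT11. The library trends with length and GC content were not removed for these values, and GALNT3 was at only 0.29 to 0.78 TPM in HCT116-CD276KO. How common such values are among all genes was not tested, so nothing is read from them about the family.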

How the data were processed

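TPM values were deposited by the authors as 1 table for all libraries. Per the labels and the study's methods, strand-specific 50-base single reads of poly(A) RNA were used, with STAR 2.5.2b, RSEM 1.3.0, featureCounts 1.5.1, FastQC 0.11.5 and hg38 named in the submitters' processing notes. Which program gave the TPM is not given in the sources used here. The study states depth only as an average per sample, and the depth of single libraries is not given in the sources used here. Symbols, positions, lengths and GC content came from GENCODE 44.

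The 13581 genes that averaged 1 TPM or more were fitted on log2(TPM + 1) with limma 3.58.1 in R 4.3.3 (trended empirical Bayes, 5 against 5 libraries, Benjamini-Hochberg adjustment over all genes, call at 0.05). This replaces the count-based limma/voom of the study. Alternatives were another pseudocount, other filters, median-of-ratios scaling, quantile normalization, a robust variance model, a replicate block and leaving out libraries. In another, a loess trend (span 0.3) on transcript length and GC content was removed from each library. The log2 ratio of mean TPM, taken without a fit, was a further alternative. p-values measure the spread between these replicates, which may be technical in part. Named genes were the members, the rest of the family, list genes with an adjusted p under 0.05 or otherwise the 2 largest differences of a list, neighbours of GALNT3 and the 5 genes most and least like it. C1GALT1, C1GALT1C1 and FGF23 were named after their values were seen. The members, lists and tests were chosen with earlier results of these data known. The list of known substrates is not reported here, apart from FGF23.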

Additional observations from a re-analysis of the deposited data

How the results depend on the processing

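GALNT3 (log2 difference -3.80 to -2.24) and GALNT5 (-1.07 to -0.74) kept their direction in every alternative that gave them a value. These ranges mix scales, as -3.80 is a log2 ratio of mean TPM and -1.07 uses a pseudocount of 0.1. Without any 1 library, on log2(TPM + 1), they were -2.41 to -2.25 and -1.05 to -0.88. The limma adjusted p was under 0.05 in all 18 and 19 alternatives that gave a p. Since the members were listed with this contrast in view, these p-values are a description and no support. A minimum mean of 5 TPM left out GALNT3 and GALNT4. GALNT7 lost its call in 9 of 19 and GALNT10 in 13, and GALNT12 gained a call in 2 (limma adjusted p = 0.0328 and 0.035, with 0.0328 to 0.22 over all). GALNT1 turned to 0.0047 with the length and GC correction and to 0.0648 without HCT116-CD276KO replicates 2 and 3, an alternative chosen after seeing the data. GALNT4 ranged from -0.0646 to 0.0952 without any 1 library, and was below 0 without HCT116-WT replicate 3 or HCT116-CD276KO replicate 4 or 5. The cause was not tested.

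The fit described above, which is not the study's limma/voom, called 662 genes. The count was 66 with a change of over 2-fold, 1299 with the length and GC correction (699 lower, 600 higher), 346 without HCT116-CD276KO replicates 2 and 3, and 340 to 886 without any 1 library. It was 422 or fewer without HCT116-WT replicate 1, 2, 4 or 5 or HCT116-CD276KO replicate 3 or 4. Of the members, 2 were called with every gene above 0 TPM or without those 2 replicates, and 2 to 5 without any 1 library. That count was 2 without HCT116-WT replicate 1, 2 or 5 or HCT116-CD276KO replicate 2, 3 or 4, and 5 without HCT116-CD276KO replicate 1. Of the core, sialic acid and donor genes, 4 were called with the correction and 0 to 3 without any 1 library (HCT116-WT replicate 3 gave 1 and HCT116-CD276KO replicate 1 gave 3).

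With replicate numbers as a block, 378 genes and 3 members were called (GALNT10 at 0.0799). Correlations of same-numbered libraries were -0.18 to 0.12, and those of differently numbered libraries -0.20 to 0.32. Since library trends with length and GC content enter them, they do not settle whether the numbers pair the libraries.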
